A study of Homo sapiens with 8 samples.

Results

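FOXO factors and genes tied to them through cell quiescence were described on arrays of K562 cells, 10 genes in all: FOXO1, FOXO3, FOXO4, TXNIP, ARRDC3, ARRDC4, PIK3IP1, IRS2, BCL6 and SESN1. They were taken as every probe set whose annotation lists 1 gene symbol, equal to one of these names, which gave 22 of the 41097 probe sets with 1 symbol and 10 of 19775 genes. A probe set is a group of short probes that report 1 or more transcripts, and each value below is a log2 signal unless a fold is named. K562 is an established human leukaemia line that resembles red cell precursors. It stably carried p42-C/EBPa-ER, a fusion of the full-length form of C/EBPa, a factor that drives granulocyte formation, with the oestrogen receptor. The treated cultures received 1 uM beta-estradiol, which brings the fusion into the nucleus, for 6 h (4 arrays), and the others received ethanol vehicle for 6 h (4 arrays). Both groups carried the fusion and grew in phenol red-free medium with stripped serum. Whether the line was 1 clone was not given in the sources used here, and with no fusion-free cells the effects of estradiol and of the fusion cannot be told apart.

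FOXO proteins are forkhead transcription factors that hold cells in quiescence, slow the cell cycle and raise stress defence. Growth signals oppose them: insulin-type receptors and, in K562, the BCR-ABL kinase activate PI3K and AKT, AKT phosphorylates the FOXO proteins, and scaffold proteins then keep them in the cytoplasm. FOXO activity is thus set largely on the protein, which arrays of RNA do not show. In blood, FOXO factors guard stem cell quiescence, and FOXO3 acts in maturing red cells.

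The array medians ran from 4.97 to 5.08 and the lower quartiles from 3.67 to 3.74. No detection calls were used, so a level near these values is not shown to be above background. Of 9 measured K562 erythroid markers GATA1, KLF1, HEMGN and HBE1 fell and NFE2 rose. Their mean level ran from 10.76 to 10.78 on the estradiol arrays and from 11.03 to 11.08 on the vehicle arrays. Of 7 lymphoid and 7 monocyte or macrophage markers 0 were called by limma, with 0 at an unadjusted p below 0.05. Their mean levels ran from 5.54 to 5.56 and from 4.26 to 4.46 with estradiol, against 5.53 to 5.67 and 4.40 to 4.49 with vehicle. Of 8 fibroblast and epithelial markers KRT18 and KRT19 fell, and the mean level ran from 7.06 to 7.08 with estradiol and from 7.21 to 7.30 with vehicle. The part of these shifts in the results below was not tested. CEBPA differed by −0.02 ± 0.07 (SE, adjusted p = 0.883) and ESR1, the oestrogen receptor gene, by 0.04 ± 0.06 (adjusted p = 0.699), and whether their probe sets lie within the fusion was not given in the sources used here.

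Of the 10 genes, 5 passed the test, and they did not move as a block. FOXO3 and BCL6 rose, while FOXO1, FOXO4 and TXNIP fell. ARRDC3, ARRDC4, PIK3IP1, IRS2 and SESN1 did not pass the test. Over all genes 17.9% were called (limma, Benjamini-Hochberg adjusted p below 0.05), 8.29% higher and 9.6% lower. Dim genes are part of that share. With only genes above the median level 4276 were called, against 3538 of all 19775, so the share among brighter genes was much higher. That filter removed BCL6, FOXO4 and ARRDC3, and of the members left 1 was called higher and 2 lower. The 17.9% is thus too low a yardstick for brighter genes, and no excess of calls among the members is read from it. By probe set 11 of 22 were called, 5 higher and 6 lower, where 13.1% of all probe sets were called, 6.61% higher and 6.54% lower. The values of the 2 treatments did not overlap for the same 5 genes, and they did not overlap for 24.1% of all genes. By probe set they did not overlap for 11 of 22, against 20.1% of all probe sets. The median change of the 10 genes was −0.03, and that of all genes was −0.03 as well. RNA was extracted from whole cultures, so fewer cells with a transcript and less of it per cell cannot be told apart.

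**Figure D1:**
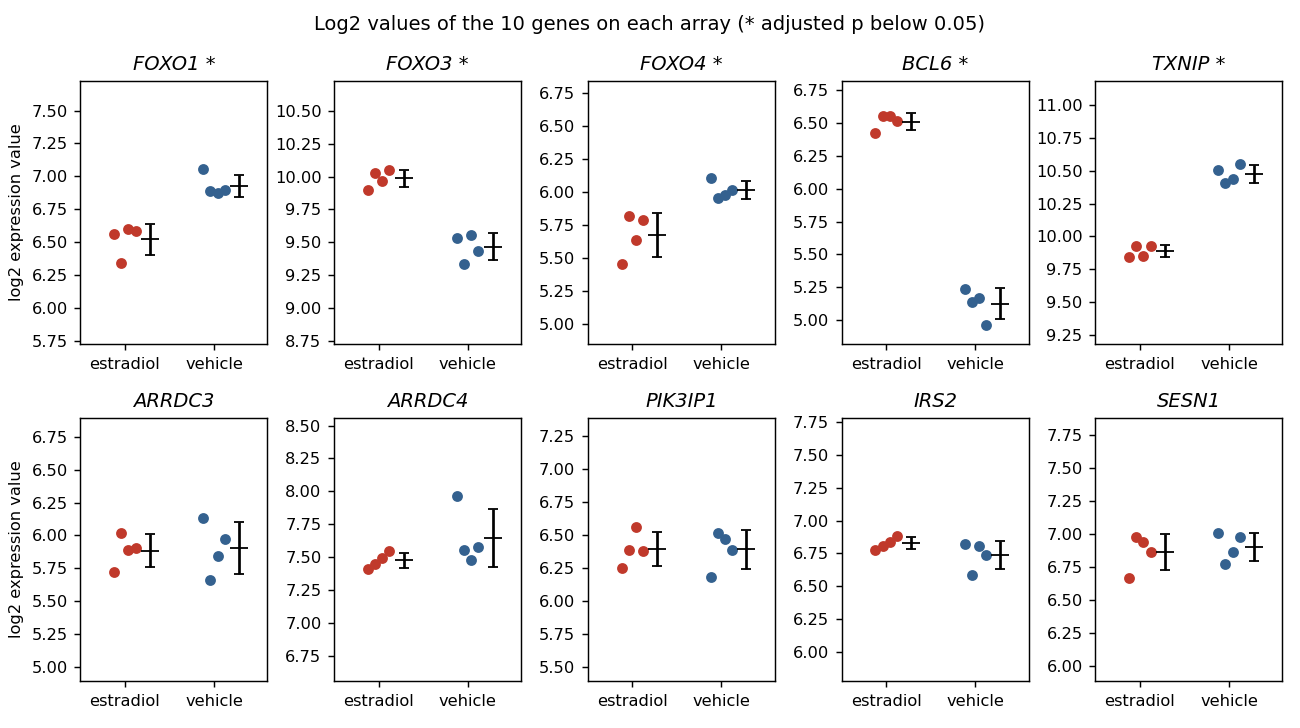
Log2 expression value (vertical axis, each panel spanning the same range of log2 units) of the 10 genes on each of the 4 estradiol arrays (red, left) and 4 vehicle arrays (blue, right), with mean and SD in black and an asterisk where the adjusted p was below 0.05. The colours separate for FOXO1, FOXO3, FOXO4, BCL6 and TXNIP and overlap for the other 5 genes.

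The FOXO factors split, with FOXO3 higher and FOXO1 and FOXO4 lower. FOXO3, the family member best known in blood stem cells and red cell maturation, had values of 9.90, 10.03, 9.97 and 10.05 on the estradiol arrays, against 9.54, 9.33, 9.56 and 9.44 on the vehicle arrays. Every estradiol array lay above every vehicle array. The change was 0.52 ± 0.06 (SE, adjusted p = 0.000363), a 1.44-fold rise. Of its 4 probe sets 3 were called higher, at 0.44 to 0.55. The fourth, with mean levels of 5.35 with estradiol and 5.31 with vehicle, changed by 0.04 ± 0.07 (adjusted p = 0.817). FOXO3 has the near-identical pseudogene FOXO3B, so the signal cannot be assigned to 1 copy alone.

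FOXO1, a main target of insulin signalling, had 6.56, 6.34, 6.60 and 6.58 with estradiol, against 7.05, 6.89, 6.88 and 6.89 with vehicle. All estradiol values lay below all vehicle values, with estradiol replicate 2 the lowest. FOXO1 fell by 0.41 (SE 0.07, adjusted p = 0.00325), with 1.33-fold higher signal in vehicle. A second probe set changed by −0.28 ± 0.06 (adjusted p = 0.0180, or 0.0588 without estradiol replicate 4 and 0.0561 without vehicle replicate 4). The third probe set, at mean levels of 3.26 with estradiol and 3.34 with vehicle, below the lower quartile of every array, showed −0.08 ± 0.10 (adjusted p = 0.704). The mean of its 3 probe sets changed by −0.25.

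FOXO4, measured by 1 probe set, is a smaller family member under the same control by AKT. Its values were 5.45, 5.82, 5.63 and 5.78 with estradiol, against 6.11, 5.95, 5.98 and 6.02 with vehicle. The groups did not overlap, though the gap between 5.82 and 5.95 was small beside the spread of the estradiol arrays. The change was −0.34 ± 0.08 (SE, adjusted p = 0.0186), and it was no longer called once estradiol replicate 3 was left out (adjusted p = 0.0527). Adjusted over all probe sets, the call ended when estradiol replicate 3, or any 1 of vehicle replicates 1, 3 and 4, was left out, with adjusted p between 0.0526 and 0.0679.

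The size of the split between the factors was taken from the arrays themselves, as the difference between 2 genes on each array. The change of FOXO3 exceeded that of FOXO1 by 0.93 ± 0.09 (SE, exact permutation p = 0.0286, adjusted p = 0.0429 over 6 pairs) and that of FOXO4 by 0.86 ± 0.07 (exact permutation p = 0.0286, adjusted p = 0.0429). Here 0.0286 is the smallest p that 4 arrays against 4 allow. For both FOXO3 differences it was fixed in advance, since the single genes already separated fully by treatment, in opposite directions. It thus adds no support beyond the calls of these genes, and only the size of the differences is read. FOXO1 and FOXO4 changed by amounts that differed by −0.06 ± 0.13 (exact permutation p = 0.714). With an average over the probe sets of each gene the FOXO3 differences were 0.64 and 0.73, each at adjusted p = 0.0571. Leaving out any 1 estradiol array (replicate 1, 2, 3 or 4), the exact permutation p of both FOXO3 differences stayed 0.0286 but the adjusted p was 0.0571, with differences of 0.86 to 0.97 from FOXO1 and 0.82 to 0.90 from FOXO4. Leaving out any 1 vehicle array, the adjusted p was 0.0429.

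**Figure D2:**
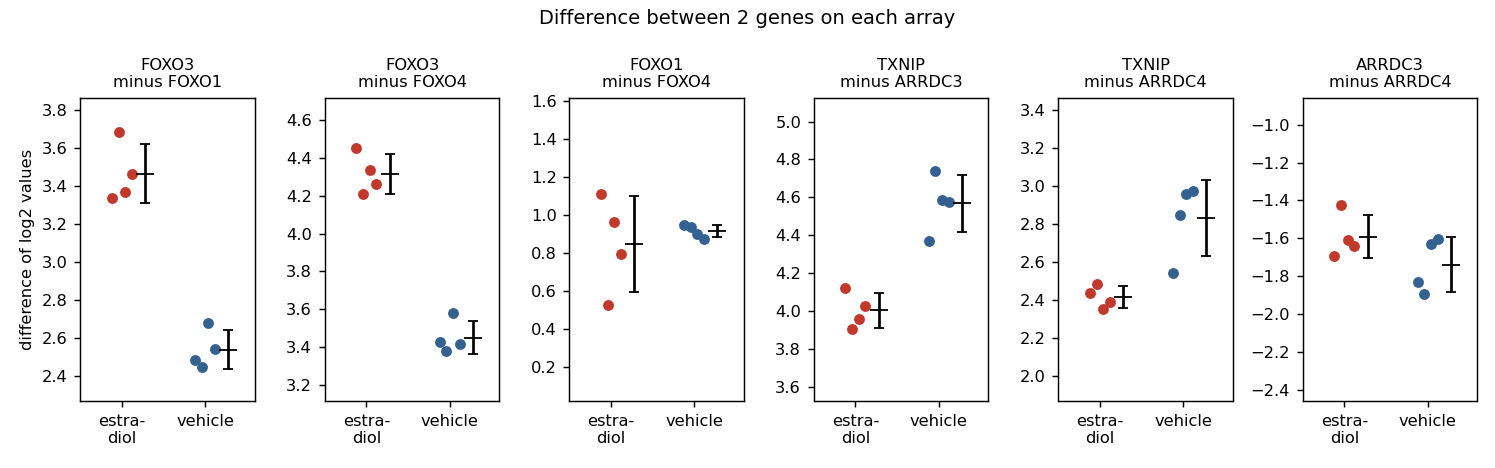
Difference between the log2 values of 2 genes on each array (vertical axis, each panel spanning the same range) for the 3 pairs of FOXO factors and the 3 pairs of alpha-arrestins, estradiol arrays in red on the left and vehicle arrays in blue on the right, with mean and SD in black. Only the shift between the colours is read: it is 0.93 for FOXO3 minus FOXO1 and −0.56 for TXNIP minus ARRDC3, while the colours overlap for FOXO1 minus FOXO4 and ARRDC3 minus ARRDC4.

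The alpha-arrestins did not move together either. TXNIP binds thioredoxin and lowers glucose uptake, and it is a target of FOXO factors and of the glucose-sensing factor MondoA. TXNIP had 9.84, 9.93, 9.85 and 9.93 with estradiol, against 10.51, 10.41, 10.43 and 10.55 with vehicle. The groups were far apart relative to their spread. TXNIP fell by 0.59 (SE 0.05, adjusted p = 4.30e-05), with 1.50-fold higher signal in vehicle, and all 3 of its probe sets were called lower, at −0.59, −0.52 and −0.38.

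ARRDC3, an adaptor that brings ubiquitin ligases to membrane receptors, had 5.72, 6.02, 5.89 and 5.90 with estradiol, against 6.14, 5.67, 5.85 and 5.98 with vehicle. The vehicle values enclosed the estradiol values. The change was −0.02 (95% interval −0.25 to 0.21, adjusted p = 0.928). ARRDC4, a relative of TXNIP that also lowers glucose uptake, had 7.41, 7.45, 7.50 and 7.54 with estradiol, against 7.97, 7.56, 7.48 and 7.58 with vehicle. Vehicle replicate 1 stood above the rest, and without it the change was −0.06 in place of −0.17 ± 0.10 (adjusted p = 0.321). The change of TXNIP differed from that of ARRDC3 by −0.56 ± 0.09 and from that of ARRDC4 by −0.42 ± 0.10 (each exact permutation p = 0.0286, adjusted p = 0.0429 over 6 pairs). ARRDC3 and ARRDC4 differed by 0.15 ± 0.09 (exact permutation p = 0.257). With the mean of the TXNIP probe sets the differences from ARRDC3 and ARRDC4 were −0.47 (adjusted p = 0.0571) and −0.32 (adjusted p = 0.0857). Leaving out any 1 estradiol array (replicate 1, 2, 3 or 4), the adjusted p was 0.0571 for ARRDC3, at −0.60 to −0.53, and 0.0857 for ARRDC4, at −0.44 to −0.40. The exact permutation p there stayed 0.0286 for ARRDC3 and was 0.0571 for ARRDC4. Leaving out any 1 vehicle array, both were at 0.0429.

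The promoters of these genes were searched for 1 form of the forkhead motif, GTAAACA, near a gene start. All 10 genes matched the RefSeq windows of GRCh38.p14 (250 bases before to 50 after a start), with 19 windows in all, since some genes have several starts. The forkhead motif GTAAACA, on either strand, was in 1 window each of TXNIP, FOXO4, ARRDC3 and PIK3IP1, and in 3.42% of the 35116 windows of all genes. A pair of CACGNG motifs with a spacer of 5 bases, known as a form bound by MondoA and its partner MLX, was in 1 TXNIP window and in 0.057% of all windows. Looser pairs and other forms of the forkhead motif were not searched. A window without a match may thus still hold another form of either. The full E-box CACGTG was in the ARRDC4 window and in 7.26% of all windows. The C/EBP motif TTGCNNAA was in 0 of the 19 windows and in 10.5% of all windows. The forkhead and E-box matches did not overlap. The 4 windows with the forkhead motif are shown because their genes were TXNIP and FOXO4, which fell, and ARRDC3 and PIK3IP1, which were not called, together with the upstream window of BCL6, the gene with the largest change. They lie at chr1:145996530-145996829 (TXNIP, minus strand), chrX:71095601-71095900 (FOXO4, plus strand), chr5:91380048-91380347 (ARRDC3, minus strand), chr22:31292439-31292738 (PIK3IP1, minus strand) and chr3:187745419-187745718 (BCL6, minus strand) of GRCh38.p14. Each runs 5′ to 3′ on the gene's strand, and the BCL6 window held none of the motifs searched. Capitals mark the forkhead motif and, in TXNIP, also the paired E-box further on.
TXNIP: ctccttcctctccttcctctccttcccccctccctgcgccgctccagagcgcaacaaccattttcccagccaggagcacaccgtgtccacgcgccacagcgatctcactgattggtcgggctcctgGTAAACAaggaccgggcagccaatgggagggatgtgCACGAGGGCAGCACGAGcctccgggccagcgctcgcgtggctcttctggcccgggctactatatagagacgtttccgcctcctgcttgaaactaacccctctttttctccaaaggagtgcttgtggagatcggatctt
FOXO4: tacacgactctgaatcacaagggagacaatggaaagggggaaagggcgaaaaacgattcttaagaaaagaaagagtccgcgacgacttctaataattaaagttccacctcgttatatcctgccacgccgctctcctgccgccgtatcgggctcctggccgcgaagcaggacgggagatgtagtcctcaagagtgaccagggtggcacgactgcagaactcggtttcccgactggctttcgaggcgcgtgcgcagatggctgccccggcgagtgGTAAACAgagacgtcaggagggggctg
ARRDC3: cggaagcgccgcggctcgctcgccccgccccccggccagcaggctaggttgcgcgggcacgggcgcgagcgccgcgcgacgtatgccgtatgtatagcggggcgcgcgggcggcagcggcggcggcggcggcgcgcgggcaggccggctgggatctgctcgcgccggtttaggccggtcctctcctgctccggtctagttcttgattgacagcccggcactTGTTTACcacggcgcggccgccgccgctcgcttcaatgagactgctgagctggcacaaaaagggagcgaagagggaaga
PIK3IP1: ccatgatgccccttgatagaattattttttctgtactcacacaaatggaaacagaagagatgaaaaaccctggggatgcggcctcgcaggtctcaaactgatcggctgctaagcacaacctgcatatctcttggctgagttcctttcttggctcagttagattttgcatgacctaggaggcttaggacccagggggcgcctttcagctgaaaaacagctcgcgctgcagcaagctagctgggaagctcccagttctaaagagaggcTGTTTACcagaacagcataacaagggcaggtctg
BCL6: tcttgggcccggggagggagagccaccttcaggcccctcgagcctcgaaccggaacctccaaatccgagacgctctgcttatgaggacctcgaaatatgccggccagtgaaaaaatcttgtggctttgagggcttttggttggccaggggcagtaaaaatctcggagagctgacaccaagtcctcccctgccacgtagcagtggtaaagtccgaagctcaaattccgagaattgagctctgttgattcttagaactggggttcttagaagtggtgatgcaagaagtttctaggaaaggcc

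In TXNIP the forkhead match began 124 bases before the start and the paired E-box 88 bases before it. In ARRDC3 the forkhead match, on the opposite strand, began 29 bases before the start. The ARRDC3 match also lies in the window of its antisense neighbour ARRDC3-AS1. In FOXO4 and PIK3IP1 it began at bases 24 and 17 after the start. A match is a run of letters and not a measured binding site.

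The brakes and adaptors of PI3K signalling among the 10 genes showed no called change. PIK3IP1, a membrane protein that inhibits PI3K, had 6.25, 6.39, 6.56 and 6.38 with estradiol, against 6.18, 6.52, 6.47 and 6.39 with vehicle. The change was 0.0020 (95% interval −0.20 to 0.20, adjusted p = 0.993), and its 2 dimmer probe sets showed −0.01 and −0.12. IRS2, an adaptor of the insulin receptor and a FOXO target, had 6.77, 6.81, 6.84 and 6.88 with estradiol, against 6.82, 6.58, 6.80 and 6.74 with vehicle. The estradiol values lay in the upper part of the vehicle range or just above it, and the change was 0.09 (95% interval −0.05 to 0.22, adjusted p = 0.393). SESN1, a sestrin that dampens the growth kinase complex mTORC1, had 6.67, 6.98, 6.94 and 6.87 with estradiol, against 7.00, 6.77, 6.87 and 6.97 with vehicle. The groups overlapped, with a change of −0.04 (95% interval −0.22 to 0.14, adjusted p = 0.808).

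BCL6 had the largest change of the 10 genes. It encodes a zinc finger repressor of germinal centre B cells that FOXO factors are known to activate, also in BCR-ABL leukaemia. BCL6 had 6.42, 6.55, 6.55 and 6.51 with estradiol, against 5.24, 5.14, 5.17 and 4.96 with vehicle. The groups lay more than 1 log2 unit apart, and the vehicle level was near the array medians, so it is not shown to be above background. The change was 1.38 ± 0.06 (SE, adjusted p = 1.34e-06), a 2.61-fold rise in signal. The probe sets of BCL6 did not show the same change. The second gave 5.56 ± 0.14 with estradiol and 5.25 ± 0.15 with vehicle (SD, n = 4), a change of 0.32 ± 0.09 (SE, adjusted p = 0.0474). That call was lost without any 1 of 7 arrays, at adjusted p from 0.0579 to 0.127, and was kept without vehicle replicate 2. The third, at 4.17 ± 0.14 with estradiol and 4.27 ± 0.03 with vehicle, was not called (−0.10 ± 0.07, adjusted p = 0.469). Its levels lay below the median of every array, so this probe set is not shown to be above background. With the mean of the 3 probe sets BCL6 changed by 0.53.

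**Figure D3:**
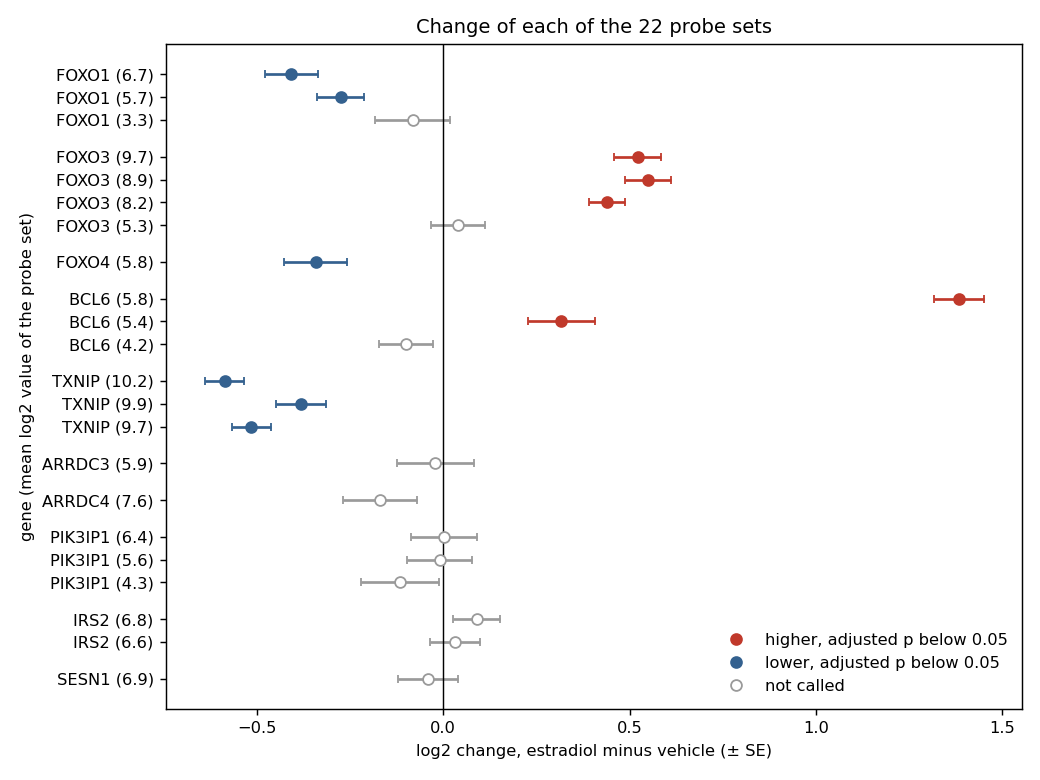
Log2 change, estradiol minus vehicle, with its SE (horizontal axis) for each of the 22 probe sets, grouped by gene, with the mean log2 value of the probe set in brackets; filled red is called higher, filled blue called lower and open grey not called. All 3 TXNIP probe sets are called lower and 3 of 4 FOXO3 probe sets higher, while the 3 BCL6 probe sets spread from −0.10 to 1.38.

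The genes whose values followed the called genes most closely over the 8 arrays were found by Pearson correlation of gene values. All the arrays share the split into treatments, so the correlations mostly show that split. For FOXO3 they were EP300, EZR and ATP5PD (r = 0.996, 0.996 and 0.994), and EP300 encodes an acetyltransferase known to bind FOXO proteins. For TXNIP they were RBM28, PEAR1 and RNF145 (r = 0.998, 0.997 and 0.997), and for BCL6 they were C1orf115, KRT10-AS1 and DENND5A (r = 0.999, 0.998 and 0.998). For FOXO1 they were CYB5RL, ZC3H8 and BLOC1S4 (r = 0.986, 0.985 and 0.984), and for FOXO4 they were CLUHP3, PSEN2 and TRAF5 (r = 0.986, 0.982 and 0.978). Correlations above 0.95 were shared with 724 genes for FOXO3, 736 for TXNIP and 646 for BCL6, and with 100 for FOXO1 and 40 for FOXO4.

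The genes around the FOXO factors were described with 5 further lists. Their counts and medians stand against 17.9% of all genes called and a median change of −0.03 for all genes. As said above, the share called was much higher among brighter genes, so a list share above 17.9% is not read as an excess of calls. In the PI3K and AKT list, which holds the kinases and receptors that act upstream of FOXO, 2 of 23 measured genes rose and 4 fell. GAB2, an adaptor that links BCR-ABL to PI3K, rose by 1.22 ± 0.06 (SE, 2.33-fold, adjusted p = 1.60e-06), with values of 9.21 to 9.39 with estradiol against 8.04 to 8.21 with vehicle. The PI3K catalytic subunit PIK3CB rose by 0.51 ± 0.06. SGK1, a kinase that phosphorylates FOXO proteins as AKT does, changed by −0.73 ± 0.08 (adjusted p = 0.000176). IRS1, the sister of IRS2, changed by −0.81 ± 0.16 (adjusted p = 0.00765), but by −0.39 with the mean of its 3 probe sets. Its mean level was 5.10 with estradiol, near the array medians and not shown to be above background, and 5.91 with vehicle. AKT1 and AKT2, at −0.09 ± 0.04 and 0.06 ± 0.07, were not called. The list median was −0.01, and 26.1% of the list was called. The falls numbered 2 when any 1 of estradiol replicates 1, 2 and 4 or vehicle replicates 1 and 4 was left out.

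Among proteins that bind, modify or export FOXO proteins, 8 of 23 measured genes rose and 2 fell, a share of 43.5% called. The rises were small. EP300 rose by 0.36 ± 0.05 (adjusted p = 0.00151), the kinase STK3 by 0.36 ± 0.06, the kinase DYRK1A by 0.34 ± 0.05 and the scaffold gene YWHAE by 0.28 ± 0.08. DYRK1A changed by 0.04 with the mean of its probe sets (adjusted p = 0.669). The YWHAE call ended when any 1 of estradiol replicates 2, 3 and 4 or vehicle replicates 1 and 2 was left out, with adjusted p between 0.0679 and 0.113, and under quantile or upper-quartile scaling, at 0.0661 and 0.0644. CREBBP, FOXM1, SIRT1 and CDK2 rose by less, and SKP2 and SIRT2 fell, by 0.22 and 0.20. The rises numbered 4 without vehicle replicate 2 and 5 without any other 1 array. The list median was 0.06.

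Among other genes known as FOXO targets 12 of 36 measured genes rose and 5 fell, 47.2% called. The list mixes genes that FOXO factors are known to repress with other targets, so these counts by sign give no direction of FOXO activity. The death ligand TNFSF10 rose 8.25-fold, the pseudokinase TRIB1 4.14-fold, cyclin G2 (CCNG2) 3.24-fold, KLF6 2.37-fold and KLF2 2.33-fold. CCNG2 had a mean level of 6.71 with estradiol and of 5.01 with vehicle, and TNFSF10 of 7.21 with estradiol and 4.16 with vehicle, so neither vehicle level, at or below the array medians, is shown to be above background. On the log2 scale the changes were 3.04 ± 0.11 for TNFSF10, 2.05 ± 0.04 for TRIB1, 1.70 ± 0.12 for CCNG2, 1.25 ± 0.08 for KLF6 and 1.22 ± 0.12 for KLF2. With the mean of their probe sets TRIB1, CCNG2 and KLF2 rose by 0.99, 0.96 and 0.58. The cell cycle inhibitors CDKN1A and CDKN1B rose by 0.72 ± 0.08 and 0.46 ± 0.05. The sestrins differed from each other in their calls: SESN2 rose by 0.33 ± 0.05 (adjusted p = 0.00173), SESN1 was not called, and SESN3 stood at 3.29 with estradiol and 3.33 with vehicle, below the lower quartile of every array. That SESN2 and SESN1 changed by different amounts was not tested. The falls were BTG1 (−0.44 ± 0.05), the cyclins CCND2 (−0.44 ± 0.05) and CCND1 (−0.30 ± 0.08), which FOXO factors are known to repress, ERBB3 (−0.38 ± 0.11) and catalase, CAT (−0.24 ± 0.05). The falls numbered 3 without estradiol replicate 1, 2 or 4. The list median was 0.10. This list was drawn up with earlier results of these data known, so its count is no independent evidence of a direction.

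In the list of arrestins, thioredoxin genes and MondoA, 3 of 17 measured genes rose and 3 fell, 35.3% called. ARRDC2, an alpha-arrestin like TXNIP, changed by −0.32 ± 0.04 (adjusted p = 0.000673), and ARRDC1 by −0.14 ± 0.06 (adjusted p = 0.144). The beta-arrestin ARRB1 changed by −0.53 ± 0.07, with all 7 of its probe sets called lower, and MLX, the partner of MondoA, by −0.16 ± 0.04. NEDD4 and NEDD4L, ubiquitin ligases that bind alpha-arrestins, rose by 0.68 ± 0.07 and 0.42 ± 0.05, and the glucose transporter SLC2A3 by 0.54 ± 0.05. With the mean of its probe sets NEDD4L rose by 0.17. TXN, the thioredoxin that TXNIP binds, differed by 0.02 ± 0.04 and MLXIP, the gene of MondoA, by −0.13 ± 0.06, and neither was called. The list median was 0.02.

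Among BCL6 partners and relatives 1 of 10 measured genes rose and 1 fell, 20% called, which is near the 17.9% of all genes. ZBTB16, also named PLZF, a zinc finger repressor of the same family, rose by 2.82 ± 0.11 (7.04-fold, adjusted p = 4.20e-07), with values of 8.13 to 8.38 with estradiol against 5.22 to 5.69 with vehicle. BACH2, a B cell repressor, changed by −0.36 ± 0.07 (adjusted p = 0.00530), and by −0.55 with the mean of both probe sets. BCOR, a corepressor of BCL6, and PRDM1, a gene that BCL6 is known to repress, differed by −0.11 ± 0.04 and 0.03 ± 0.09 without a call. The falls numbered 2 without estradiol replicate 2 or 3, and the rises 2 without estradiol replicate 3. Under other settings the falls numbered up to 3 and the rises up to 2. The list median was −0.06.

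**Figure D4:**
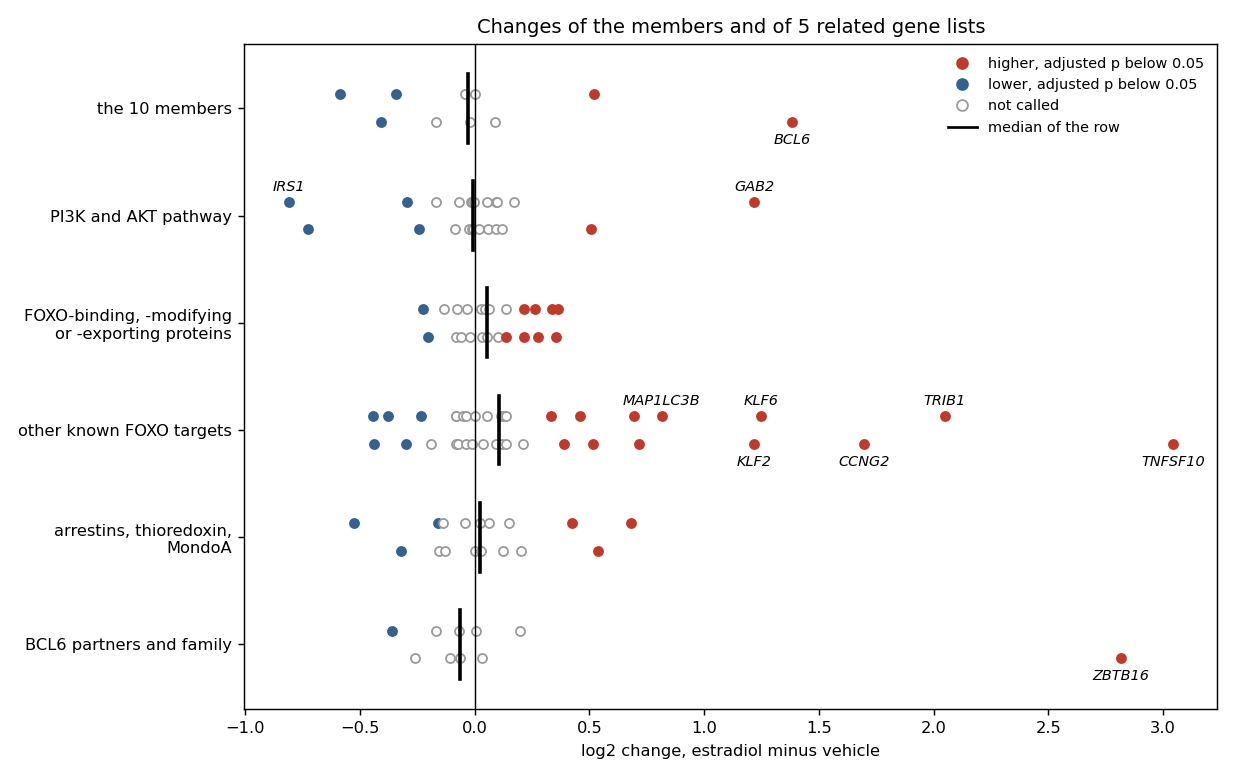
Log2 change, estradiol minus vehicle (horizontal axis), of each measured gene in the set of 10 genes and in the 5 lists, 1 point a gene, red called higher, blue called lower and open grey not called, with the median of each row as a black bar and gene names where a called change exceeded 0.75. Every row holds called genes on both sides of 0, and the medians run from −0.06 to 0.10.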

How the data were processed

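Gene expression was measured on 8 arrays, 4 estradiol and 4 vehicle, grouped and numbered by the sample titles, which call them biological replicates. Nothing more says how the cultures were separated, so p-values cover only the spread among these arrays. The authors deposited log2 values, 1 column a sample, and the submitters' processing notes name RMA. Its version, the chip definition and the build were not given in the sources used here. RMA brings the arrays to a common distribution, so a shift in the same direction across most genes cannot be seen, and dim genes change by less than their RNA does. The number of arrays limits the precision.

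In the platform annotation 41097 of 54675 probe sets carried 1 gene symbol and were used, while 1801 listed more than 1 symbol and 11777 listed none. Of these, 41043 symbols were checked by gene identifier against RefSeq and 0 changed. Each gene was represented by its probe set of highest average level across the 8 arrays. Genes and, apart from them, all probe sets with 1 symbol were fitted with limma 3.58.1 (lmFit, eBayes, no block) in R 4.3.3, two-sided, with Benjamini-Hochberg adjustment over all of them and calls below 0.05. SDs are over 4 arrays, and SEs of changes are the moderated ones of limma. Differences between 2 genes' changes carry an SE from the 2 groups' variances, with exact two-sided permutation tests over all 70 splits. The code was tested on simulated data.

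The members, lists and tests were chosen with earlier results of these data known. Named were all members, up to 4 called genes of each list with the largest change (or that with the smallest p), the 3 genes most correlated with each called member, and SESN2, SESN3, IRS1, ARRDC1, ARRDC2, CCNG2, CDKN1A, CDKN1B, KLF2, TNFSF10, CEBPA and ESR1. Other list genes in the text were picked once their values were known. Of 154 list genes 14 were not analysed here. Figures were drawn with matplotlib 3.10.9. Alternatives were the replicate number as a block, 3 scalings, 2 filters on dim features, averaging the probe sets of a gene, a robust fit with a variance trend, weights for the arrays, leaving out each array and an adjusted p below 0.01.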

Additional observations from a re-analysis of the deposited data

Results flagged for a closer look

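In 7 of 98 groups of 4 values examined, 1 array stood far from the other 3 by Dixon's test at its 95% critical value, and chance marks about 1 in 20 such groups. On the FOXO1 probe set that stood for the gene both treatments had such an array. Estradiol replicate 2 was low at 6.34, with the others at 6.56 to 6.60, and vehicle replicate 1 was high at 7.05, with the others at 6.88 to 6.89. FOXO1 was called lower without either of them, with changes of −0.35 without estradiol replicate 2 (limma, adjusted p = 0.00530) and −0.37 without vehicle replicate 1 (adjusted p = 0.00824). On the second BCL6 probe set estradiol replicate 4 was high at 5.77, with the others at 5.47 to 5.51.

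Genes of the lists gave the other 4 values. SESN2 was 8.38 on vehicle replicate 1, with the others at 8.23 to 8.25. SGK1 was 8.64 on vehicle replicate 2, with the others at 8.78 to 8.80. EP300 was 6.82 on estradiol replicate 1, with the others at 6.92 to 6.94. ZBTB16 was 8.38 on estradiol replicate 1, with the others at 8.13 to 8.17.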

How the results depend on the processing

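FOXO1, FOXO3, TXNIP and BCL6 kept their calls under every alternative in which they were fitted, with changes of −0.43 to −0.25, 0.39 to 0.55, −0.63 to −0.49 and 0.53 to 1.43. The count of the 10 genes called higher was 1 with only features above the median level, since that filter removed BCL6, and otherwise 2. The genes called lower numbered 2 to 3, and the probe sets 4 to 5 higher and 4 to 6 lower. Same-numbered arrays are not paired by the labels, and their deviations from the group means correlated at −0.21 to 0.11, with 1 of 4 pairs above 0.1 and 2 of 8 arrays correlating best with their own number. With the replicate number as a block, 2 of the 10 genes were called higher and 2 lower (FOXO4 at adjusted p = 0.0677), 4 probe sets were called higher and 4 lower, and 2598 genes in all were called, against 3538 without it. At an adjusted p below 0.01 there were 2179, by construction. Over the 5 lists, 26 genes were called higher, with 20 to 29 under the alternatives and 22 to 25 leaving out 1 array. The 15 called lower became 9 with array medians set equal (the cause was not tested) and 8 at an adjusted p below 0.01, were 14 to 21 under the settings other than these and the block (10), and ran from 10 to 17 leaving out 1 array. Averaging the probe sets of each gene, the changes differed by 0.64 for FOXO3 minus FOXO1, 0.73 for FOXO3 minus FOXO4, −0.47 for TXNIP minus ARRDC3 (exact permutation, adjusted p = 0.0571 each) and −0.32 for TXNIP minus ARRDC4 (adjusted p = 0.0857). FOXO1 minus FOXO4 was 0.088 there and −0.15 to 0.044 leaving out 1 array. Leaving out 1 array, the called differences ran from 0.86 to 0.98, 0.82 to 0.91, −0.63 to −0.51 and −0.51 to −0.37 in the same order, and lost their call without any 1 estradiol array (adjusted p = 0.0571, and 0.0857 for TXNIP minus ARRDC4) and kept it without any 1 vehicle array. Without any 1 estradiol array the exact permutation p of TXNIP minus ARRDC4 was 0.0571. That of the other called differences stayed at 0.0286, the smallest allowed, so their adjusted p rose only through the adjustment over 6 pairs. Among BCL6 partners the 1 called lower became 3 after quantile normalization again, with only features above the median level and with a variance trend, and 2 with the block, upper quartiles set equal, the lower-quartile filter, array weights and averaged probe sets, while the 1 called higher became 2 with the median filter, a variance trend and array weights. Among binding and modifying proteins the 8 called higher became 3 at an adjusted p below 0.01 and 5 with the block, upper quartiles set equal and averaged probe sets, and the count called lower, 2, was 1 with the block and at an adjusted p below 0.01, and 0 by limma with array medians set equal, where 2 were lower at an unadjusted p below 0.05. The 4 called lower in the PI3K list became 2, and the 5 among FOXO targets 3, with the block, and both 2 at an adjusted p below 0.01, while the PI3K list also had 2 with array medians set equal. The other reversals were of changes near 0 with no call in any fit, and their cause was not tested. ARRDC3 was 0.0031 after quantile normalization again, 0.0048 with medians set equal and −0.10 to 0.055 leaving out 1 array. PIK3IP1 was −0.0087 with upper quartiles set equal, −0.041 as a mean of probe sets and −0.068 to 0.050 leaving out 1 array, and its second probe set was 0.016 under quantile and under median scaling, 0.045 with array weights and −0.052 to 0.073. CEBPA was 0.0049 with medians set equal, 0.0092 with array weights and −0.062 to 0.033. With array weights the third FOXO1 probe set was 0.035 and the second IRS2 probe set −0.0027. Leaving out 1 array, this IRS2 probe set ran from −0.0070 to 0.062, SESN1 from −0.085 to 0.025, SESN3 from −0.090 to 0.0047 and the fourth FOXO3 probe set from −0.0025 to 0.10. With no detection calls used, the low level of SESN3 and of the dim probe sets limits what their changes show. A filter on dim features gives no value for what it removes, and the mean of probe sets none by probe set.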
